A study of Mus musculus with 22 samples.

Results

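Ptpn22, Pik3ip1 and Pdcd4 are 3 genes whose products restrain signalling in lymphocytes, out of 29294 gene identifiers measured in splenic immature B cells of mice. They were chosen by their normalized counts, which were higher after γδ T cell depletion than in untreated mice in experiment 2 of the series, so that difference is given as a description with no test. Experiment 1 and the cultures did not enter the choice and are the places where the genes were tested. RNA was sequenced from 22 libraries of sorted B220+CD93+ spleen cells, in 7 groups spread over 3 tables. The untreated groups are Tcrd-GDL mice without toxin, with 3 libraries in experiment 1 and 5 in experiment 2. The depleted groups are Tcrd-GDL mice given diphtheria toxin, with 3 libraries in experiment 1 and 2 in experiment 2. The toxin control group, with 3 libraries in experiment 2, is Tcrd-H2BeGFP mice given the same toxin. All toxin-treated mice had 2 injections of 15 ng per g of body weight, 48 h apart, and were taken on day 8 after the first. The culture groups are immature B cells from Tcrd-H2BeGFP animals, 3 libraries without and 3 libraries with added γδ T cells, and no culture time, age or sex is given. Tcrd-GDL is known as a strain whose Tcrd locus carries a toxin receptor, so that toxin removes γδ T cells, and Tcrd-H2BeGFP as a reporter strain without that receptor. The toxin control therefore differs from the depleted group in strain as well as in depletion, and the untreated group differs from it in strain and in toxin, so these cannot be told apart in those comparisons.

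The B cell receptor signals through Src-family and Syk kinases, and from there through phosphoinositide 3-kinase (PI3K), the kinase AKT and the growth regulator mTORC1 to protein synthesis. Each of the 3 genes acts at another step of that route. Ptpn22 encodes a cytosolic tyrosine phosphatase that removes activating phosphates from kinases next to antigen receptors. Pik3ip1 encodes a membrane protein that binds the catalytic subunit of PI3K and lowers its activity. Pdcd4 encodes a protein that binds the RNA helicase eIF4A and holds back cap-dependent translation, and S6 kinase marks it for degradation. When PI3K and AKT are quiet, FOXO transcription factors stay in the nucleus and drive genes of resting and recirculating lymphocytes.

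The promoters of the 3 genes are shown first, because all 3 genes were higher in the depleted libraries of experiment 2 and the printed letters show which short motifs they do and do not share. The sequences are from RefSeq on GRCm38.p6 and run from 250 bases before to 50 bases after an annotated start. RefSeq gives 2 such windows for Ptpn22, 1 for Pik3ip1 and 2 for Pdcd4, all on the plus strand. The window with a motif match is printed for Ptpn22 (chr3:103860027-103860326) and Pdcd4 (chr19:53903101-53903400), and the sole window for Pik3ip1 (chr11:3330481-3330780). Capitals mark a match.
Ptpn22 promoter 2: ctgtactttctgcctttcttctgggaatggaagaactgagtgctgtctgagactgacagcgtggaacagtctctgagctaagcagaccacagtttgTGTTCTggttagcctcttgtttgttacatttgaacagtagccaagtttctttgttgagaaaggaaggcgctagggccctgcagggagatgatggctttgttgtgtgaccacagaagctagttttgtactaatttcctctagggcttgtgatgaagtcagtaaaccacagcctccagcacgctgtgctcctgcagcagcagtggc
Pik3ip1 promoter: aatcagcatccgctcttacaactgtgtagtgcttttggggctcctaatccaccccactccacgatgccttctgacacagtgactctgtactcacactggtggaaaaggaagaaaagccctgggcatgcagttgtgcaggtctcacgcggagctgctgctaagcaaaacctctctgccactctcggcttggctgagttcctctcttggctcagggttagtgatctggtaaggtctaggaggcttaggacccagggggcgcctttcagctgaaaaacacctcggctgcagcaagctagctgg
Pdcd4 promoter 2: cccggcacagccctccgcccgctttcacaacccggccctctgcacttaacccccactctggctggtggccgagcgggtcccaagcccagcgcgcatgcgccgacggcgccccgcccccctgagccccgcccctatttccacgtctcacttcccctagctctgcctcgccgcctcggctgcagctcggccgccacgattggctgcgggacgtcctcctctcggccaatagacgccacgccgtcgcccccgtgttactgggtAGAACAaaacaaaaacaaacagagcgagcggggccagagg
The motifs searched on both strands were GTAAACA (FOXO), AGAACA (a hexamer of the glucocorticoid receptor site), CAGGTG (E proteins) and CCGGAAG (ETS factors). The AGAACA hexamer was found in 2 of the 5 windows. It lay as its reverse complement TGTTCT at position -154 of Ptpn22 and as AGAACA at position 10 of Pdcd4, counting the annotated start as 0. The other 3 motifs were in none of the 5 windows, and no match overlapped another motif. Of all 32851 promoter windows of this length, 19.0% held the AGAACA hexamer, 3.65% GTAAACA, 20.2% CAGGTG and 8.86% CCGGAAG. The 3 printed windows differ in base composition, with 48.7% G and C in Ptpn22, 54.7% in Pik3ip1 and 68.7% in Pdcd4. A match is a description of letters and no evidence of a bound factor.

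Libraries held 9794413 to 36840455 reads, and 198 to 7516 of them fell on each of the 3 genes, which gives a counting error of 1.15% to 7.11% per value. B cell identity was as labelled, with Cd79a between 7179 and 26435 normalized counts in every library. Genes of the T cell receptor complex (Cd3d, Cd3e, Cd3g, Cd247, Trac, Trbc1 and Trbc2, summed) summed to between 18.4 and 91.0 in the libraries of experiment 1, and reached higher sums in experiment 2 (195 to 1086) and in the cultures (172 to 236). Genes of the γδ receptor reached at most 10.6, were listed at 0 in all 3 cultures of B cells alone, and reached 0.877 in 1 of 3 co-cultures. Depleted replicate 1 of experiment 1 stands apart from the other 5 libraries of its table. The noncoding RNA Gm23935 took 28.7% of its reads and 16.1% to 20.4% of theirs, and its Y-linked Ddx3y was 569 with Xist at 3.06, while the untreated libraries had Ddx3y at 0 and Xist at 9304 or more. Depleted replicate 2 held Ddx3y at 40.0 beside Xist at 9866. Results of experiment 1 are therefore given with and without replicate 1.

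In experiment 2, all 3 genes were higher in both depleted libraries than in each of the 5 untreated ones, which is what they were picked for. Across all 13364 genes tested, 5.78% lay higher without overlap in this comparison, and nothing is read from the members' count. Ptpn22 was 734, 816, 741, 955 and 935 normalized counts in untreated replicates 4 to 8, and 2675 and 1305 in depleted replicates 4 and 5. It was 899, 871 and 833 in the toxin control. Depleted replicate 4 thus stood 3.20 times and replicate 5 stood 1.56 times the untreated mean, while the toxin control libraries lay inside the untreated range.

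Pik3ip1, the PI3K inhibitor, had the same shape. It was 933, 994, 869, 1078 and 1130 in the untreated libraries, 3426 and 1459 in the depleted libraries, and 809, 916 and 858 in the toxin control. The depleted libraries stood 3.42 and 1.46 times the untreated mean. In the toxin control 2 of the 3 libraries lay under the lowest untreated library.

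Pdcd4, the translation inhibitor, differed from the other 2 genes in how alike the depleted libraries were. It was 4502, 4623, 4002, 4659 and 5043 in the untreated libraries, 6674 and 6670 in the depleted libraries, and 4936, 5023 and 5297 in the toxin control. Both depleted libraries stood 1.46 times the untreated mean and differed from each other by less than counting error. The toxin control overlapped the untreated range.

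On the log2(value + 1) scale the depleted minus untreated differences were 1.17 for Ptpn22, 1.17 for Pik3ip1 and 0.55 for Pdcd4. Against the toxin control they were 1.11, 1.38 and 0.39, from the same 2 depleted libraries. The toxin control minus untreated differences were 0.06, -0.21 and 0.16, again from shared libraries. Over all genes 9.07% were called for depleted against toxin control and 15.7% for toxin control against untreated, by limma. The size for Ptpn22 and Pik3ip1 rests on depleted replicate 4. Without it the depleted minus untreated differences were 0.65 for Ptpn22 and 0.55 for Pik3ip1, and 0.55 for Pdcd4.

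**Figure D1:**
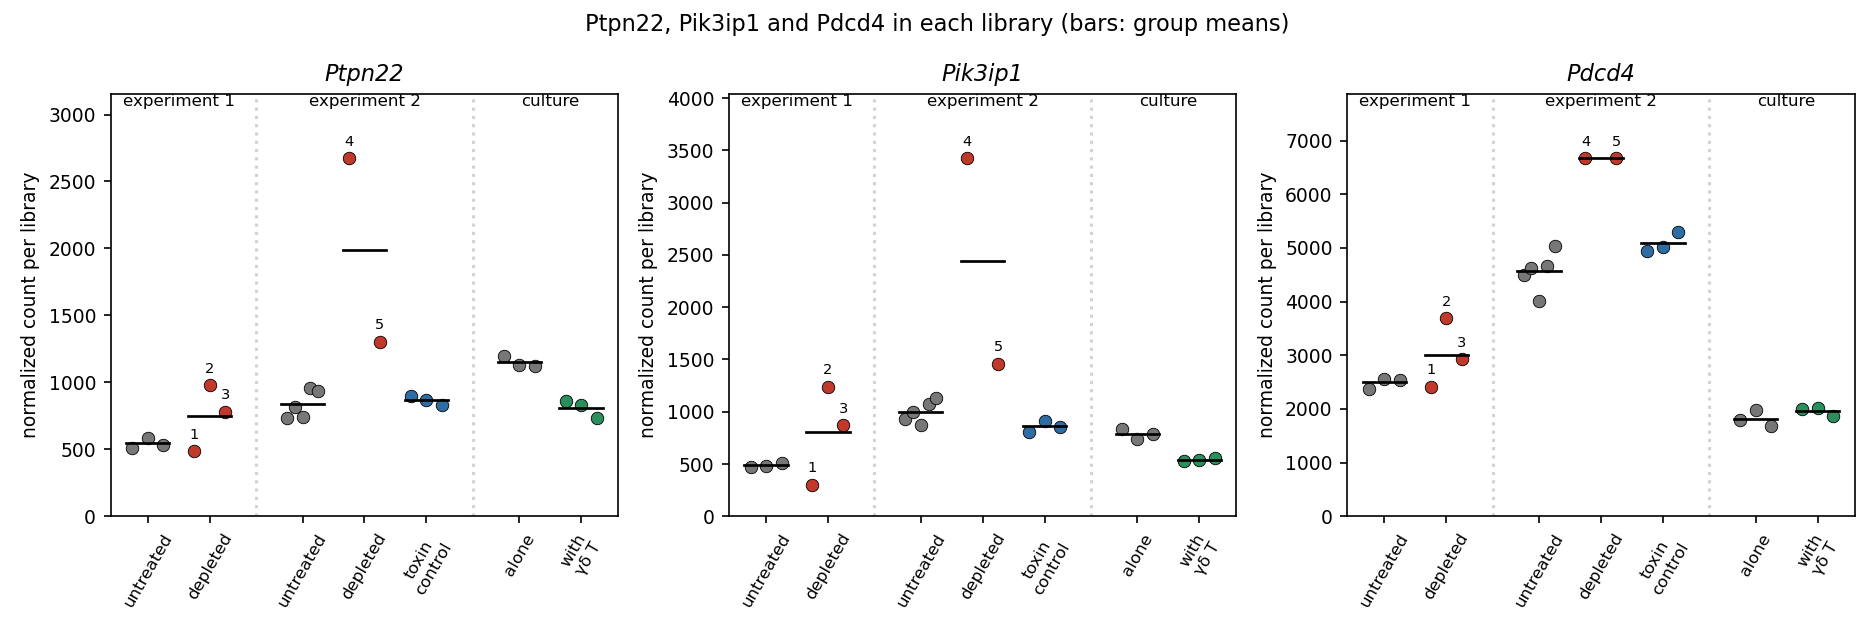
Normalized count (vertical axis, linear from 0) of Ptpn22, Pik3ip1 and Pdcd4 in each library, by group; points are libraries, bars are group means, numbers mark depleted replicates, and dotted lines separate tables that were scaled apart. Depleted replicate 4 stands highest for Ptpn22 (2675) and Pik3ip1 (3426), both depleted libraries of experiment 2 coincide for Pdcd4 (6674 and 6670), and co-cultures lie under cultures alone for Ptpn22 and Pik3ip1.

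Other genes moved in the same 2 depleted libraries. Fkbp5 and Ddit4, both induced by glucocorticoids, were 857 and 455 and 2296 and 1052 there, against untreated ranges of 168 to 277 and 284 to 588. By limma (Benjamini-Hochberg over all genes) Ddit4 rose by 1.96 ± 0.28 (SE, adjusted p = 0.00957) and Fkbp5 by 1.43 ± 0.23 (adjusted p = 0.0209) on the log2 scale. Of the whole list of glucocorticoid responsive genes, 3 of 11 rose (8 of 11 positive, 3 negative, median 0.35). Genes of B cell stage moved too. Rag1, a recombinase of early B cells, was 36.2 and 52.5 in the depleted libraries against 94.8 to 299 in the untreated ones (adjusted p = 0.0130), and Ighd, the IgD heavy chain of later stages, was 21464 and 15303 against 9662 to 12541 (adjusted p = 0.0209). Of the whole stage lists, 2 of 11 transitional and immature B cell genes fell (9 of 11 negative, median -0.35) and 2 of 12 mature B cell genes rose (7 of 12 positive, median 0.04), while Cd93, used for the sort, had a log2 difference of -0.04 (adjusted p = 0.955). The calls of Ddit4, Fkbp5, Rag1 and Ighd rest on depleted replicate 4. Without it the log2 differences were 1.40 for Ddit4, 0.97 for Fkbp5, -1.73 for Rag1 and 0.53 for Ighd, with limma adjusted p of 0.257 to 0.598. Fkbp5 was also not called without untreated replicate 4 (adjusted p = 0.0626), nor was Ighd without untreated replicate 4 or 5 (0.0703 and 0.0538). In this comparison 40 of 13364 genes were called, or 0.299%. The part of stage, of glucocorticoid response or of sorted cell mixture in the levels of the 3 brakes was not tested, and in bulk libraries a change in the share of cells cannot be told apart from a change in RNA per cell.

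Experiment 1 made the same comparison in another set of libraries, and none of the 3 genes passed the test there. No gene of 11701 did by limma (0%), nor by edgeR on recovered reads, while DESeq2 called 27 genes and 1033 genes (8.83%) had an unadjusted limma p under 0.05. The groups did not overlap for 15.2% of all genes, while they overlapped for each of the 3 brakes. Ptpn22 was 514, 589 and 537 in the untreated libraries and 488, 978 and 781 in depleted replicates 1 to 3. Depleted replicate 1 lay under all untreated libraries and the other 2 above all of them. The log2 difference was 0.40 ± 0.21 (SE, 95% interval -0.07 to 0.87, limma adjusted p = 0.605).

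Pik3ip1 was 474, 477 and 511 in the untreated libraries and 303, 1240 and 873 in the depleted ones. Replicate 1 was again under, and replicates 2 and 3 above, every untreated library, at 0.621, 2.54 and 1.79 times the untreated mean. The log2 difference was 0.50 ± 0.40 (95% interval -0.39 to 1.39, limma adjusted p = 0.729). Against those ratios, the depleted libraries stood at 0.893, 1.79 and 1.43 times the untreated mean for Ptpn22.

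Pdcd4 was 2380, 2562 and 2544 in the untreated libraries and 2413, 3694 and 2923 in the depleted ones. Replicate 1 lay inside the untreated range and the other 2 above it. The log2 difference was 0.25 ± 0.14 (95% interval -0.07 to 0.56, limma adjusted p = 0.619). These intervals hold both no difference and, for each gene, the difference that experiment 2 gave without its replicate 4. With replicate 4, the difference of experiment 2 lay inside the interval for Pik3ip1 (1.17) and Pdcd4 (0.55), but above it for Ptpn22 (1.17). The genes were picked by the values of experiment 2, so setting them against these intervals is no test of agreement. Whether the experiments differ was not tested.

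The results of experiment 1 turned on which depleted library was left out. Without depleted replicate 1 the log2 differences were 0.68 for Ptpn22, 1.09 for Pik3ip1 and 0.40 for Pdcd4, with limma adjusted p of 0.000597, 2.0e-05 and 0.0111, and 1092 genes were called. Without depleted replicate 2 they were 0.18, 0.08 and 0.09, with adjusted p of 0.880, 0.979 and 0.892. Beyond its Gm23935 share and Ddx3y level, replicate 1 had Rag1 at 42.8, inside the untreated range of 32.7 to 53.4, while replicates 2 and 3 had 13.7 and 8.42. Ighd was 5229 in replicate 1, and 12459 and 9974 in replicates 2 and 3, against 6198 to 8072 untreated. T cell receptor complex genes summed to 18.4, 46.3 and 91.0 in the 3 depleted libraries and to 52.5 to 78.0 untreated. Log2 differences over both groups were negative for 10 of 11 T cell genes tested and 5 of 6 myeloid genes. So were those of 9 of 9 genes of transitional and immature B cells. They were negative for 5 of 12 mature B cell genes, 5 of 10 B cell identity genes and 2 of 5 dendritic cell genes. For NK cell and γδ T cell genes they were negative in 0 of 2 each. Of all genes 6084 of 11701 were negative, and none was called. The part of sex, library quality, stage or T cell content in the low values of replicate 1 was not tested.

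**Figure D2:**
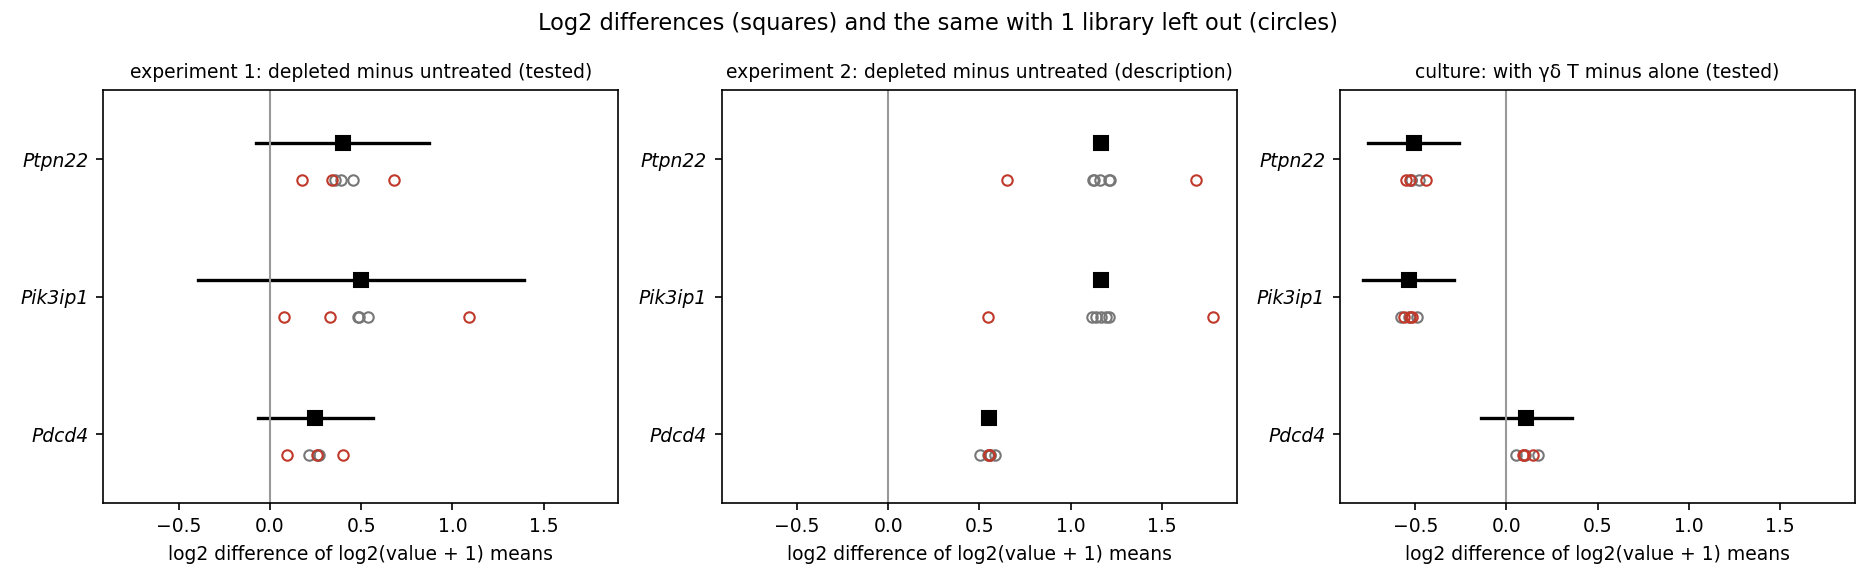
Log2 difference (horizontal axis) of each gene in 3 comparisons: squares are the fitted differences, lines their 95% intervals where a test was allowed, and open circles the difference with 1 library left out (red: a depleted or co-culture library; gray: a reference library). In experiment 1 the circles for Pik3ip1 run from 0.08 to 1.09, while in culture all circles for Ptpn22 and Pik3ip1 lie under 0.

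In culture the question was whether γδ T cells beside the B cells alter the genes, and Ptpn22 and Pik3ip1 fell while Pdcd4 did not pass the test. Among all 12386 genes tested 131 fell, or 1.06%, and 267 changed in either direction, or 2.16%. Ptpn22 was 1198, 1127 and 1123 in B cells alone and 859, 832 and 738 in co-culture. All 3 co-cultures lay under all cultures alone, as 10.4% of all genes did. The log2 difference was -0.51 ± 0.11 (SE, 95% interval -0.76 to -0.26, limma adjusted p = 0.0401), which is 0.703 times the level of B cells alone.

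Pik3ip1 was 833, 737 and 783 in B cells alone and 528, 534 and 558 in co-culture. The groups did not overlap, and the co-cultures were close to each other. The log2 difference was -0.54 ± 0.11 (95% interval -0.79 to -0.29, limma adjusted p = 0.0308), which is 0.690 times the level of B cells alone. Pdcd4 was 1797, 1983 and 1681 in B cells alone and 2002, 2016 and 1863 in co-culture. These groups overlapped, with a log2 difference of 0.11 ± 0.11 (95% interval -0.14 to 0.36, limma adjusted p = 0.776).

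Both calls in culture sit close to the threshold. They were lost when any single library other than co-culture replicate 3 was left out (limma adjusted p of 0.0774 to 0.246 for Ptpn22 and 0.0941 to 0.218 for Pik3ip1), though the log2 differences stayed between -0.58 and -0.44. They were also lost with the level of T cell genes as a covariate (-0.49 and -0.58, adjusted p = 0.464 and 0.303). The T cell gene list, 20 genes all present in the table, summed to 2615 to 2779 in B cells alone and 2283 to 2692 in co-culture, and its defining receptor genes to 172 to 210 and 183 to 236. Of 10 genes of transitional and immature B cells 3 fell (list median -0.45), and Fcer2a, a receptor of mature follicular B cells, rose by 1.56 (adjusted p = 2.03e-05). The summed level of RNA quality and stress genes was 109303 in co-culture replicate 3 and 182814 to 223396 in the other 5 libraries. Replicate 3 of both culture groups held Ddx3y (817 and 927), which was at most 1.94 in the others. The part of B cell stage, T cell content, RNA quality or sex in the lower values was not tested. The labels do not say whether libraries of a group came from separate mice or cultures, so each p-value reflects only how far these libraries scatter.

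Setting the tested comparisons side by side, Ptpn22 and Pik3ip1 lay above every untreated library in depleted replicates 2 and 3 of experiment 1. In depleted replicate 1 both lay under every untreated library, and neither passed the test there. Both lay under every culture alone in 3 of 3 co-cultures, as 10.4% of all genes did. Pdcd4 lay above every untreated library in 2 of 3 depleted libraries of experiment 1. It lay above every culture alone in 2 of 3 co-cultures, and passed neither test. The share of all genes above in 2 of 3 libraries was not counted. Whether the differences in depletion and in culture themselves differ was not tested, since the tables were scaled apart.

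Per kb of exon, the order of the group means was the same in all 7 groups. Pdcd4 was highest, with 796 ± 31.9 normalized counts per kb in untreated mice of experiment 1 (SD, n = 3), 1456 ± 119 in those of experiment 2 (SD, n = 5) and 581 ± 48.5 in B cells alone (SD, n = 3). Pik3ip1 followed with 114 ± 4.80, 234 ± 24.7 and 184 ± 11.3 in the same groups. Ptpn22 was lowest with 80.7 ± 5.65, 123 ± 15.5 and 170 ± 6.24. The ranges of Pik3ip1 and Ptpn22 per kb overlapped in 4 groups, but both genes were read in the same libraries. Within a library Pik3ip1 was higher in every culture alone and in both depleted libraries of experiment 2. The order was reversed in depleted replicate 1 of experiment 1 (70.9 against 72.0) and in co-culture replicate 1 (124 against 127). In culture the ranges of Pik3ip1 and Ptpn22 were 172 to 195 and 166 to 177 alone, and 124 to 131 and 109 to 127 in co-culture. In the depleted groups they were 70.9 to 290.3 and 72.0 to 144 in experiment 1, and 342 to 802 and 193 to 395 in experiment 2.

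Lists of 14 to 20 genes were drawn up for PI3K subunits and activators, the AKT and mTORC1 axis, other PI3K and mTOR brakes, FOXO target genes, Ptpn22 substrates and partners, tyrosine phosphatases, and Pdcd4 partners with translation initiation. In experiment 1, where 0% of all genes were called, no list had a called gene, and the list medians lay between -0.08 and 0.03 against -0.01 for all genes. The gene with the smallest p in each was Pik3r2 (log2 difference 0.29), Rps6kb2 (0.23), Inpp4b (-0.30), Bcl2l11 (-0.37), Lck (-0.28), Ptprs (-0.56) and Btrc (-0.48), with limma adjusted p of 0.432 to 0.618. In experiment 2, by limma, 1 of 19 other brakes rose and 1 of 20 FOXO targets fell, and the other 5 lists had no called gene, beside 0.299% of all genes. The brake was Ddit4, which restrains mTORC1, and the FOXO target was Rag1, both given above. The list medians there lay between -0.08 and 0.08, with the median of all genes at -0.00237. In the 5 lists without a call the genes with the smallest p were Pik3r2 (-0.42), Rictor (-0.18), Fgr (0.47), Ptpn1 (0.18) and Eif4ebp1 (-0.48), with limma adjusted p of 0.218 to 0.556.

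In culture the FOXO targets had the most called genes of the 7 lists. Of 20 tested, 3 fell and 1 rose by limma, beside 1.06% of all genes that fell and 2.16% that changed either way. In the list 18 of 20 had a negative log2 difference (6290 of 12386 over all genes), and their median was -0.33 against -0.00495 for all genes. Ccr7, a chemokine receptor that guides lymphocytes into T cell zones, was 1701 ± 55.4 alone and 993 ± 110 in co-culture (SD, n = 3 each), a log2 difference of -0.78 ± 0.12 (adjusted p = 0.00439). Cat, which encodes catalase and is named because the count is small, fell by 0.63 (adjusted p = 0.0334). Bcl6, a transcriptional repressor that germinal centre B cells use, rose from 729 ± 84.0 to 1300 ± 208 (limma adjusted p = 0.00856). Ccr7 is also on the list of mature B cell genes. The list was drawn up with earlier results of these data known, so its median is a description.

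Among partners of Ptpn22 in culture, 1 of 19 rose and 1 fell, again beside 2.16% of all genes. Lck, a Src-family kinase and substrate of Ptpn22, rose from 311 ± 26.3 to 513 ± 91.3 (limma adjusted p = 0.0297). Lck is also a T cell gene, and no other gene of the T cell list passed the test. Of 18 other brakes 1 rose, Sesn2, a stress-induced inhibitor of mTORC1, from 78.5 ± 5.80 to 153 ± 4.08 (adjusted p = 0.00717). PI3K subunits (0 of 12), the AKT and mTORC1 axis (0 of 18), other tyrosine phosphatases (0 of 17) and Pdcd4 partners (0 of 19) had no called gene. In these 4 lists the genes nearest to the threshold were Pik3cd, the PI3K catalytic subunit of leukocytes (log2 difference -0.37), Foxo3 (-0.25), Ptpn9 (0.30) and Eif3c (0.38).

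**Figure D3:**
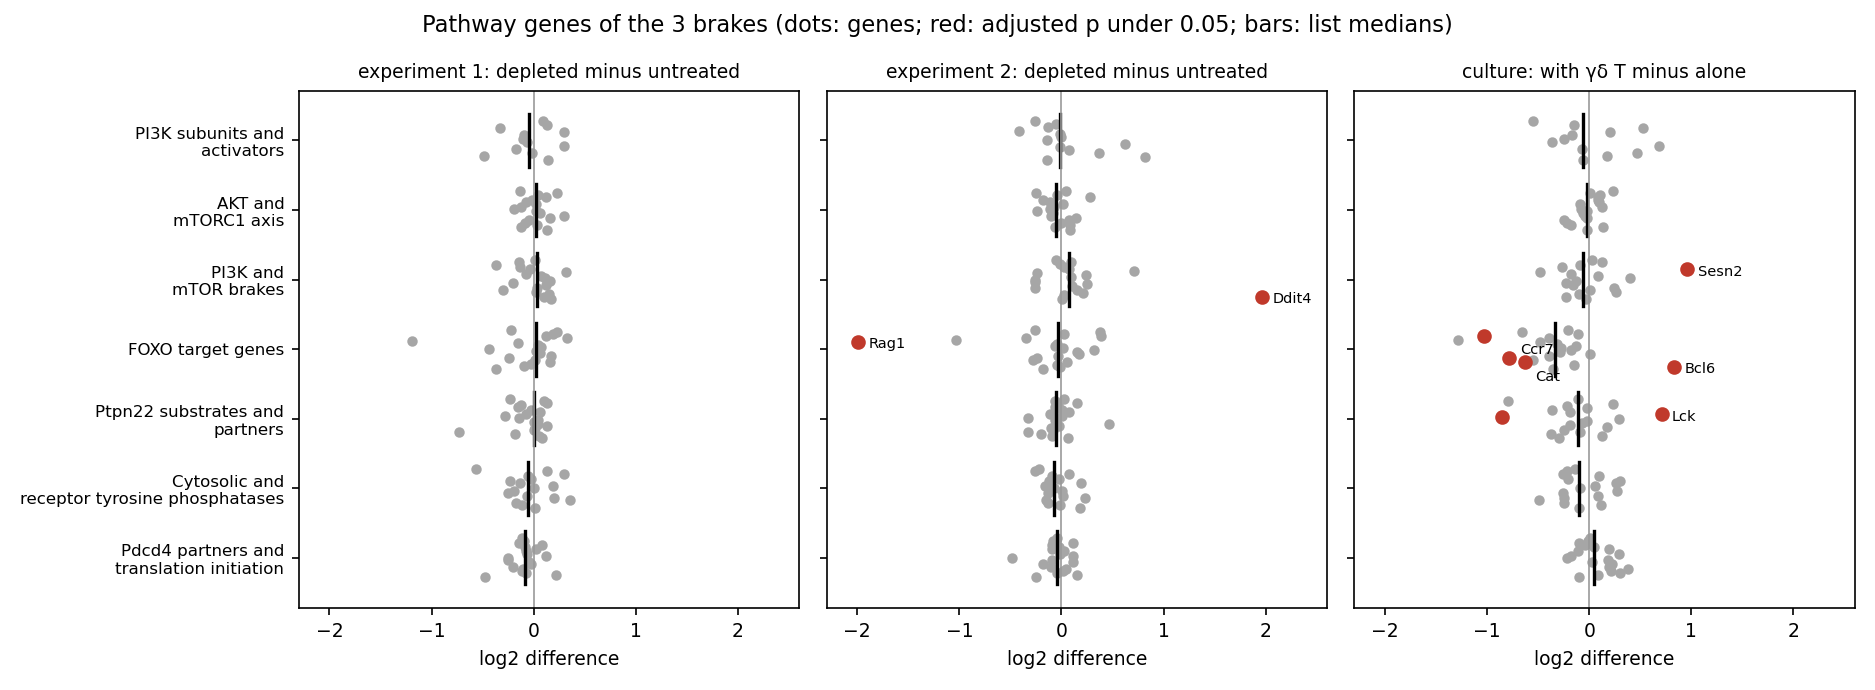
Log2 differences (horizontal axis) of single genes in 7 pathway lists, the 3 brakes left out, in 3 comparisons; gray dots are genes, red dots genes with an adjusted p under 0.05 by limma (those named in the text are labelled), black bars list medians. No dot is red in experiment 1, Ddit4 and Rag1 are red in experiment 2, and the FOXO targets in culture have a median of -0.33.

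The 3 genes were next compared with 8977 genes over the 22 libraries, by Pearson's r of log2(value + 1) centred within each table. These r are descriptions: the libraries share their scaling and groups, and the libraries of experiment 2 for which the 3 genes were chosen are among them, which partly fixes the r between the 3. Ptpn22 and Pik3ip1 tracked each other with r = 0.94 (0.92 centred within groups), and no other gene of the 8977 had a higher r with either of them. In the libraries outside the choice their r was 0.96 in experiment 1 (n = 6) and 0.94 in culture (n = 6). The r of Pdcd4 was 0.75 with Ptpn22 and 0.72 with Pik3ip1. Within the 6 libraries of experiment 1 these were 0.97 and 0.92, but within the 6 culture libraries they were -0.46 and -0.67.

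The gene most like Ptpn22 was Sesn1, a sestrin that restrains mTORC1 (r = 0.88, 0.82 within groups). Sesn1 was 5470 in depleted replicate 4 of experiment 2 but 2083 in replicate 5, inside the untreated range of 1925 to 2158. In culture it was 1190, 1190 and 1096 alone and 902, 873 and 727 in co-culture, lower without overlap like Ptpn22. Next came Anapc16, a subunit of the anaphase-promoting complex (0.87), March1, a ubiquitin ligase of MHC class II (0.85), Kctd14 (0.84) and Dclre1b, a nuclease of telomeres (0.84). Dclre1b lies 50351 bases from Ptpn22 on the same chromosome.

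The genes most like Pik3ip1 were B4galnt1, a ganglioside synthase (r = 0.90), Zfp36l2, which promotes mRNA decay (0.90, and 0.94 within groups), Kctd14 (0.90), Cdk19, a kinase of the Mediator complex (0.89), and Phf7 (0.89). Zfp36l2 moved both down and up with Pik3ip1, though not in every library. It was 907 in depleted replicate 1 of experiment 1 against 2303 to 2943 untreated, and 11988 in depleted replicate 4 of experiment 2 against 3315 to 6143. Depleted replicate 5 had 5189, inside the untreated range, where Pik3ip1 (1459) lay above every untreated library. In culture Zfp36l2 was 2014, 2123 and 2041 alone and 1060, 1119 and 1225 in co-culture.

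The genes most like Pdcd4 were Anapc16 (r = 0.84), Ppp1r21 (0.82), Fkbp5 (0.82), Erlec1, a lectin of the endoplasmic reticulum (0.82), and Serpinb6a, a protease inhibitor (0.81). Within groups these fell to between 0.49 and 0.69. Fkbp5, which encodes a partner of the glucocorticoid receptor, had r = 0.72 with Ptpn22 and 0.69 with Pik3ip1 over all libraries, but -0.87 and -0.77 within the 6 culture libraries, where it was 98.4 to 132 alone and 154 to 206 in co-culture.

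**Figure D4:**
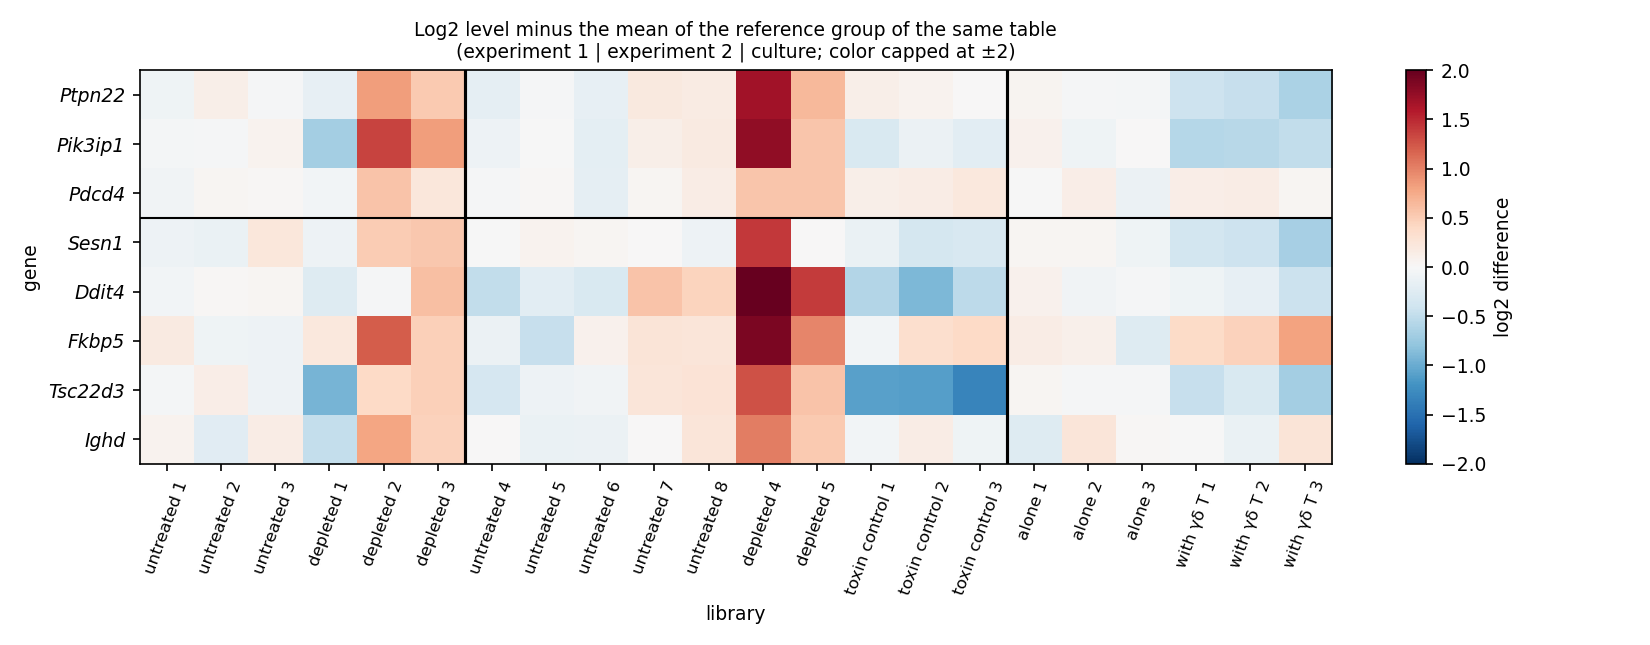
Log2 level of each gene (rows) in each library (columns) minus the mean of the untreated or alone group of the same table; red is higher, blue is lower, and color stops at 2, which Ddit4 in depleted replicate 4 exceeds. Depleted replicate 1 of experiment 1 is blue for Ptpn22 and Pik3ip1 where replicates 2 and 3 are red, and in co-culture Ptpn22, Pik3ip1, Sesn1 and Tsc22d3 are blue while Fkbp5 is red.

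The genes sit at chr3:103859795-103912247 (Ptpn22), chr11:3330401-3342971 (Pik3ip1) and chr19:53892231-53929860 (Pdcd4) in GRCm38, all protein coding and on the plus strand. Their nearest protein-coding neighbours did not show the same shape. Rsbn1, 1873 bases from Ptpn22, was 2432 and 2612 in the depleted libraries of experiment 2 against 2198 to 2610 untreated. Limk2, 1285 bases from Pik3ip1, was 777 and 784 against 725 to 783. Bbip1, which abuts Pdcd4 on the other strand, was 408 and 420 against 432 to 498.

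Small annotated transcripts overlap 2 of the loci. Gm15472, annotated inside an intron of Ptpn22 on the same strand, was 424 in depleted replicate 4 of experiment 2 and 24.1 to 90.1 in the other 9 libraries of that table. In experiment 1 it was 21.4, 115 and 70.8 in depleted replicates 1 to 3 and 42.3 to 52.6 untreated, the same order as Ptpn22. Gm12592, antisense to Pik3ip1 and overlapping its exons, was 102 in depleted replicate 4 and 18.7 to 68.6 elsewhere in experiment 2, against 809 or more for Pik3ip1. The kit keeps strand, but whether counting used it is not given in the sources used here, so reads of Pik3ip1 and Gm12592 may be mixed.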

How the data were processed

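Per the labels' protocols, RNA of 22 libraries was isolated with an RNeasy Plus Micro kit, and libraries were built by a SMART-Seq Stranded Total RNA kit. Reads were processed with bcl2fastq and aligned with STAR 2.5.2b to mm10, per the submitters' processing notes. For the counter, annotation, use of strand and scaling, the method is not given in the sources used here. Values in the deposited tables are a normalized count signal, that is gene read counts the authors divided by a library factor, judging by the values: 100% of values were whole multiples of 1 read within 0.01. The 3 tables hold 21880, 26097 and 25676 genes and were analysed apart.

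Genes with a mean of at least 10 were tested with limma 3.58.1 (R 4.3.3) on log2(value + 1), with a mean-variance trend and Benjamini-Hochberg adjustment over all genes tested. The threshold was an adjusted p under 0.05, and a log2 difference understates the change of low genes. Alternatives were a pseudocount of 5, no filter, a mean of at least 50, quantile and TMM scaling, edgeR 4.0.16 and DESeq2 1.42.0 on the recovered reads, each library left out, T cell level as a covariate, and a replicate block. Tables and figures were made with Python 3.11.15, pandas 2.3.3, numpy 2.4.6 and matplotlib 3.10.9. The tests were checked on simulated data.

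The 3 genes and all lists were chosen with earlier results of these data known. Named list genes were up to 3 called genes per list and comparison by smallest p, or otherwise the gene with the smallest p (some are not reported here), and a set of stage, glucocorticoid and marker genes. For each of the 3 genes, the 5 with the highest r were named, leaving out predicted genes and pseudogenes.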

Additional observations from a re-analysis of the deposited data

Results flagged for a closer look

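Among 15 groups of values examined, 3 had 1 sample far from the rest by Dixon's test, which chance gives in about 1 group of 20. Each group was 1 gene or summed gene set in the same 5 untreated libraries of experiment 2. The 15 are thus not independent, and Cd3e is also part of the receptor complex sum. All 3 lay in untreated replicate 8 of experiment 2. Its Cd3e, a T cell receptor component, was 167 against a group median of 41.4. Its Lyz2, a lysozyme of myeloid cells, was 941 against a median of 277, and its summed T cell receptor complex genes were 886 against 281. In the same library Ptpn22 was 935, Pik3ip1 1130 and Pdcd4 5043, of which the last 2 are the highest untreated values of experiment 2.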

How the results depend on the processing

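No log2 difference of Ptpn22, Pik3ip1 or Pdcd4 changed sign for depletion or in culture under any alternative run. With T cell level as a covariate the culture differences were -0.49 for Ptpn22 and -0.58 for Pik3ip1 and were no longer called. The genes called in experiment 1 were 0, but 2 without a filter and 27 with DESeq2. For depletion in experiment 2 they were 40, but 138 with DESeq2, 74 with the T cell covariate, 5 when only the 2 groups were fitted and 153 with the replicate block. For depleted against toxin control they were 1212, but 725 without a filter, 53 with the covariate and 442 with only 2 groups. For toxin control against untreated they were 2093, and 18 with the covariate. In culture they were 267, but 56 with the covariate and 448 with the replicate block. The cause was not tested.

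Leaving out each library gave 0 to 1092 called genes in experiment 1, 0 to 579 for depletion in experiment 2 (0 without depleted replicate 4, 579 without depleted replicate 5), 42 to 2712 against the toxin control, 196 to 2996 for toxin control against untreated and 103 to 678 in culture. The log2 differences in experiment 1 ran from 0.18 to 0.68 for Ptpn22, 0.078 to 1.09 for Pik3ip1 and 0.091 to 0.40 for Pdcd4. In experiment 2 they ran from 0.65 to 1.69, 0.55 to 1.78 and 0.50 to 0.59. In culture they ran from -0.55 to -0.44, -0.58 to -0.49 and 0.05 to 0.17.

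Same-numbered libraries did not deviate together in every pair (r of -0.02, -0.04 and 0.05 in experiment 1, 0.20, -0.04 and 0.23 in culture, -0.07 and -0.11 in experiment 2). In culture, replicate 3 of both groups also held Ddx3y (817 and 927), which replicates 1 and 2 nearly lacked. Whether same-numbered libraries share a source is not given, and the main fits did not pair them. With the replicate block no call of the 3 genes changed (adjusted p of 0.590, 0.715 and 0.700 in experiment 1, 0.0271 and 0.0228 for Ptpn22 and Pik3ip1 in culture). Counting error was 1.15% to 7.11% per value of the 3 genes, and groups held 2 to 5 libraries.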

Other observations

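Between the toxin-treated groups of experiment 2, several genes around the 3 brakes differed, by limma over all genes, where 9.07% of all genes were called for depleted against toxin control and 15.7% for toxin control against untreated. These comparisons share the toxin control libraries and strain goes with the group, so strain and depletion cannot be told apart. Of 13 PI3K subunits and activators, 4 were lower in depleted libraries than in the toxin control: Pik3r5 (log2 difference -0.58), Pik3cg (-0.54), Pik3ap1 (-0.39) and Pik3r2 (-0.61). Against the untreated group, 4 of the same 13 were higher in the toxin control: Pik3ap1 (0.46), Pik3cg (0.53), Pik3ca (0.30) and Pik3r1 (0.27). In the depleted minus untreated comparison none of the 13 was called. Ptprj, a receptor phosphatase, was -0.90 for depleted minus toxin control and 0.64 for toxin control minus untreated, and Ptpn18 was 0.78 and -0.54. Of 19 other PI3K and mTOR brakes, 3 were called for depleted minus toxin control, 2 higher and 1 lower. Ddit4 was 2.63 (limma adjusted p = 0.000263), Sesn1 0.98 (0.0231) and Inpp4b -0.60 (0.0134). T cell genes moved with the same groups: 9 of 20 were higher in the toxin control than in untreated libraries and 5 of 20 were lower in depleted libraries than in the toxin control, and their part was not tested.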
